A study of Mus musculus with 20 samples.

Results

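Heart was compared directly with skeletal muscle on 6 of the 20 arrays of a mouse expression series titled for sleep apnea and glucose metabolism. The arrays were chosen by their titles alone, 3 that name heart and 3 that name muscle, and no measured value entered the choice. Each tissue was profiled once under each of 3 exposures: hypoxia, sleep fragmentation, and a control with neither. All 6 arrays are labelled as total RNA of C57BL-6J mice aged 20 weeks, with no transgene or mutant allele named for these tissues. The labels give neither the muscle that was dissected, the chambers of the heart, the sex, the dose or length of an exposure, nor whether the arrays came from separate or pooled animals. A p-value below therefore measures only the spread between these arrays. Exposure is a term of the fit, so an exposure effect common to both tissues is taken out of that spread. An exposure effect that differs between the tissues stays in it. The other arrays hold brain and lung under the same exposures, 6 arrays, and adipose tissue.

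Heart and skeletal muscle are both striated: their fibres hold sarcomeres in which myosin thick filaments pull on actin thin filaments, and calcium released from the sarcoplasmic reticulum switches the thin filament on through troponin and tropomyosin. The proteins of this machinery come in isoforms from separate genes, so that cardiac muscle, fast skeletal muscle and slow skeletal muscle each use their own set. Heart beats without rest and draws most of its energy from fatty acids, lactate and ketone bodies burned in mitochondria, whereas fast skeletal fibres can work in bursts fed by glycogen. Heart cells are also coupled electrically and mechanically end to end at intercalated discs, and secrete natriuretic peptides, while skeletal fibres are each driven by a motor nerve.

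The values are deposited intensities on a linear scale, and wherever 3 values are listed they stand in the order control, sleep fragmentation, hypoxia. For tests, the values were put on the scale log2(intensity + 90.3), which pulls the differences of dim probe sets towards 0. The 6 arrays were then quantile normalized. A difference is the log2 level in heart minus that in skeletal muscle, given with its standard error. Of 12422 probe sets that are not platform controls, 7453 passed a filter on low values and were tested with limma, with exposure as a block. At an adjusted p of 0.05, 709 probe sets, 9.51% of those tested, were higher in heart and 616, 8.27%, were higher in skeletal muscle. With 1 probe set for each of the 5615 tested genes, the shares were 9.87% and 8.00%, and these are the backgrounds for the counts over gene lists below. The counts were 566 and 413 without the control pair of arrays, 451 and 385 without the sleep fragmentation pair, and 181 and 182 without the hypoxia pair. The 3 hearts and the 3 skeletal muscles did not overlap at 38.9% of the probe sets tested, whichever tissue was higher. The median difference was -0.01 over all probe sets and -0.000573 over all genes tested. The 6 arrays grouped by tissue: correlations across probe sets were 0.942 to 0.960 among hearts, 0.934 to 0.943 among muscles and 0.855 to 0.893 between the tissues.

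The labelled tissues were borne out by their defining genes. Myh6, the alpha myosin heavy chain of adult mouse heart, read 12074, 16017 and 4213 in heart, against 5.54, 19.6 and 12.8 in skeletal muscle. Tnnt2, cardiac troponin T, read 14211, 16643 and 11159 in heart, against 156, 268 and 208 in skeletal muscle. Myh1, a fast skeletal myosin heavy chain, read 26.1, 129 and 37.2 in heart, against 13609, 13063 and 14017 in skeletal muscle, and Tnnt3, fast skeletal troponin T, read 208, 43.7 and 237 in heart, against 20431, 15653 and 18649.5 in skeletal muscle. For each of the 4 genes every array of the one tissue lay far above every array of the other. Their differences were 6.59 ± 0.37, 5.73 ± 0.20, -6.35 ± 0.23 and -6.09 ± 0.29 (SE, n = 3 arrays a tissue), with limma adjusted p-values of 0.000227, 7.56e-05, 7.56e-05 and 0.000143.

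**Figure D1:**
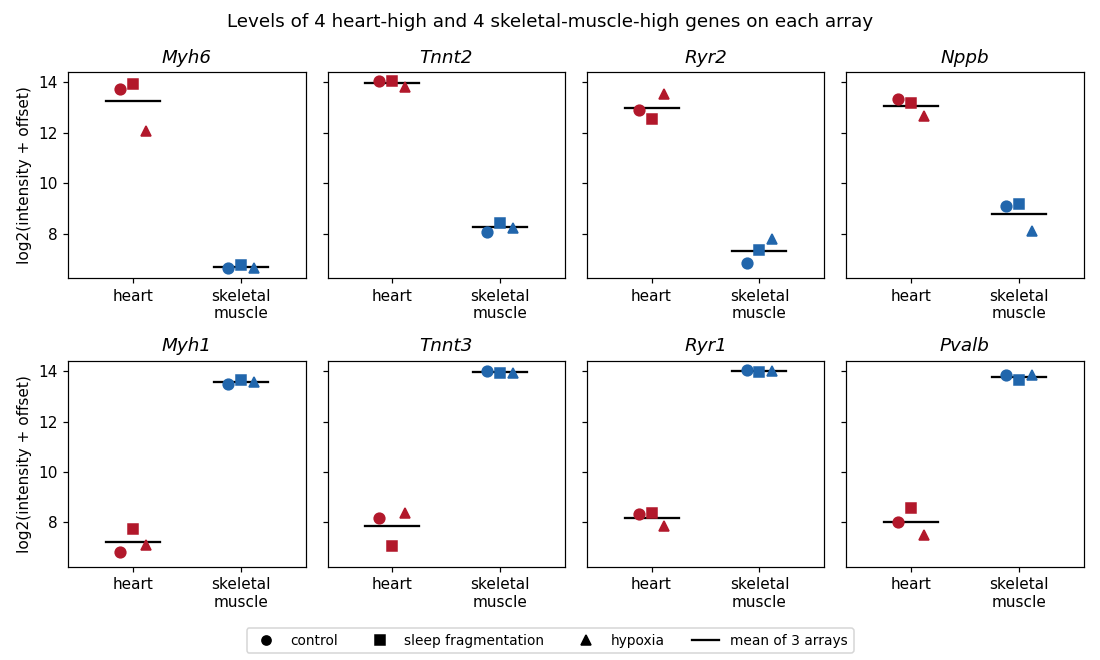
Level of 8 genes on each array, as log2(intensity + offset) after quantile normalization, heart left of skeletal muscle in each panel, with 1 symbol per array by exposure and a line at the mean of 3 arrays. Myh6, Tnnt2, Ryr2 and Nppb are high on all 3 heart arrays, Myh1, Tnnt3, Ryr1 and Pvalb on all 3 muscle arrays, and Myh6 on the hypoxia heart array lies below the other hearts.

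The skeletal muscle arrays differed among themselves in genes known from other tissues. On the control muscle array, genes of the intestinal lining stood out: Apoa1, an apolipoprotein made by gut and liver, read 123, 148 and 131 in heart, against 4791, 141 and 236 in skeletal muscle. Defa35, an antimicrobial peptide gene of Paneth cells, read 186, 148 and 106 in heart, against 7199, 163 and 1686 in skeletal muscle. Of 20 intestinal genes on the array platform, 15 were highest on the control muscle array. The summed intensity of the 20 there was 48745 against 4831 to 7669 on the heart arrays. It was 5804 on the sleep fragmentation muscle array and 10538 on the hypoxia muscle array, which thus also lay above every heart. On the sleep fragmentation muscle array Adam7 and Gpx5, genes of the epididymis, stood out: Adam7 read 244, 395 and 58.5 in heart, against 174, 9071 and 196 in skeletal muscle, and Gpx5 read 418, 517 and 301 in heart, against 267, 8424 and 363 in skeletal muscle. All 4 epididymis genes on the platform were highest there. The array was also the highest of the 6 for 5 of 7 white fat genes: Adipoq, the hormone adiponectin, read 825, 868 and 1995 in heart, against 411, 6364 and 2926 in skeletal muscle. Both the intestinal and the epididymis list were written after these values were seen. Of these lists, 10 intestinal, 2 epididymis and 6 white fat genes were bright enough to be tested between the tissues. None passed in limma, and 5, 0 and 1 had an unadjusted p under 0.05. A gene high on 1 muscle array alone varies widely within that tissue, so this test could hardly call it. The part of these genes in the results below was not tested.

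**Figure D2:**
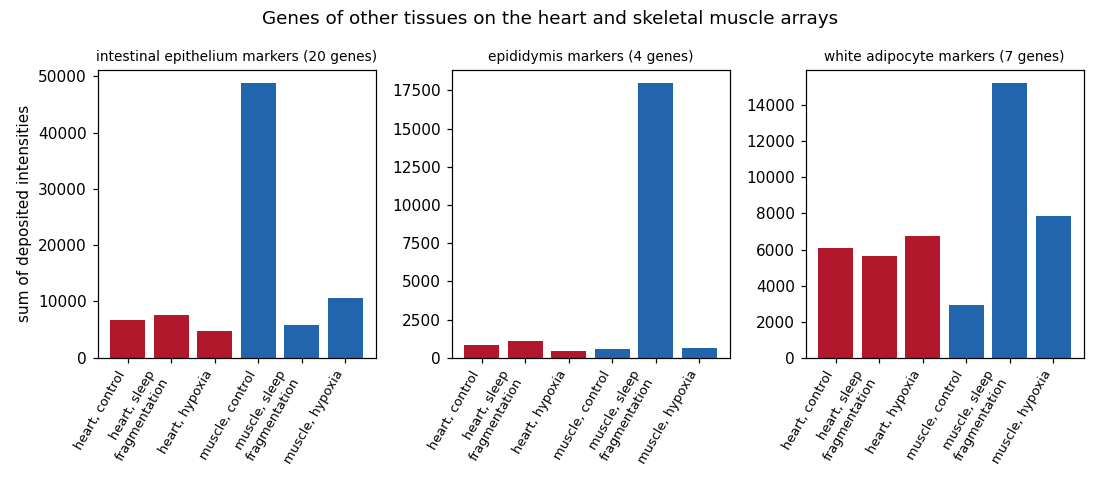
Summed deposited intensities of 20 intestinal, 4 epididymis and 7 white fat genes on each array, hearts in red on the left and skeletal muscles in blue on the right. The control muscle array is highest for intestinal genes at 48745, and the sleep fragmentation muscle array for epididymis genes at 17957 and white fat genes at 15213.

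Most genes of the cardiac sarcomere were higher in heart. Of 9 measured, 8 were called higher in heart and none higher in skeletal muscle by limma (0 at an unadjusted p under 0.05), and their median difference was 4.57, against -0.000573 over all genes tested. Myl7, the atrial regulatory light chain, read 9380.1, 8768 and 8165 in heart, against 67.8, 123 and 59.3 in skeletal muscle. Myl4, the atrial essential light chain, read 7360.2, 5787 and 8852 in heart, against 207, 255 and 261 in skeletal muscle. Both were high on every heart array and dim on every muscle array. Tnni3, cardiac troponin I, read 7904, 9403 and 4209.7 in heart, against 249.8, 154 and 482 in skeletal muscle, and Mybpc3, cardiac myosin-binding protein C, read 6325, 8883 and 4911 in heart, against 552, 602 and 667 in skeletal muscle. The differences were 5.82 ± 0.22, 4.57 ± 0.22, 4.26 ± 0.44 and 3.27 ± 0.25, with limma adjusted p-values of 7.56e-05, 0.000143, 0.00199 and 0.0007. Ankrd1, a stress-responsive ankyrin repeat protein that binds titin, differed by 5.47 ± 0.33. Myom2, an M-band protein, differed by 0.44 ± 0.21 and was the measured member that did not pass (limma adjusted p = 0.199). Cardiac actin, Actc1, read 13883, 15900 and 11780.5 in heart, against 15463, 2096 and 4427 in skeletal muscle on its brighter probe set. Within the control pair its difference was only 0.36. Actc1 was close to the threshold, and 9 of the 12 alternative settings put it on the other side of it. For Actc1, one probe set gave 1.65 ± 0.43 (limma adjusted p = 0.0424) and the other -1.77 ± 0.59 (limma adjusted p = 0.0859).

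Most genes of the fast skeletal sarcomere were higher in skeletal muscle. Of 11 tested members, 9 were called higher in skeletal muscle and 1, Acta1 (described below), higher in heart, with a median over the list of -3.67. Tnni2, fast troponin I, read 25.4, 80.9 and 39.1 in heart, against 6892, 4435 and 5877 in skeletal muscle. Tpm2, beta tropomyosin, read 199, 188 and 709 in heart, against 16637, 15665 and 16406 in skeletal muscle. Myoz1, which tethers calcineurin at the Z disc of fast fibres, read 931, 1217 and 930.1 in heart, against 17154, 14647 and 15682 in skeletal muscle, so heart held a clear signal for it although every muscle array was more than 10 times as bright. The differences were -5.33 ± 0.25, -5.20 ± 0.35 and -3.67 ± 0.20, with limma adjusted p-values of 0.000143, 0.000408 and 0.000227. Myh4, the fastest myosin heavy chain of mouse limb, differed by -3.77 ± 0.24, and Actn3, the fast-fibre alpha-actinin, by -2.46 ± 0.47. Actn3, which was not called without the fragmentation pair (limma adjusted p = 0.0689), was uneven among muscles: one probe set read 5945, 4157 and 841 and the other 812, 5307 and 649 in skeletal muscle. Myl1 and Mylpf, the fast essential and regulatory light chains, differed by -1.91 and -2.09, and the dimmer Mylpf probe set by -4.18. Without the hypoxia pair, 7 of the 11 were called higher in muscle. Tnnc2, fast troponin C, read 389, 905 and 588 in heart, against 519.6, 722 and 95.1 in skeletal muscle and did not pass (limma adjusted p = 0.395). Myh2, the heavy chain of type IIa fibres, was too dim to be tested.

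Some of the most abundant muscle transcripts did not follow their textbook tissue. Acta1, skeletal actin, read 5363, 4250.2 and 4439 in heart, against 1126, 475 and 1272 in skeletal muscle, and was called higher in heart (difference 2.32 ± 0.28, limma adjusted p = 0.00373; adjusted p = 0.161 with all 12 panel arrays in the fit). Myl2, the ventricular and slow regulatory light chain, read 752, 132 and 88.9 in heart, against 4812, 3019 and 2039 in skeletal muscle, and was called higher in skeletal muscle (difference -3.28 ± 0.30, limma adjusted p = 0.00119). Heart and muscle arrays did not overlap for either gene. Each has 1 probe set on the platform, so no second reading of it was at hand. The Acta1 probe set also read 6109, 329 and 9460 in brain and 80.2, 396 and 9321 in lung. It was thus brighter on the brain control and lung hypoxia arrays than on any heart or skeletal muscle array. Other skeletal muscle genes varied among these arrays too. Myh1 read 582, 15.7 and 362 in brain and 4.56, 16.5 and 1985 in lung. Tnnt3 read 580, 68.9 and 1745 in brain and 32.8, 88.7 and 1284 in lung. Whether the Acta1 call reflects the level of skeletal actin was not tested. Probe sets of 1 gene could also disagree: of 912 genes with 2 or more tested probe sets, Akap1, Ankrd40, C1qb, Lasp1 and Pvalb had sets called in opposite directions. The platform's control sets for Gapdh read differently along the transcript as well. The ratio of the 3' set to the 5' set of Gapdh was 0.443, 1.15 and 0.136 in heart, against 0.0261, 0.264 and 0.00899 in skeletal muscle, while that of Actb was 0.964, 1.18 and 1.17 in heart and 1.25, 1.52 and 1.20 in skeletal muscle. Gapdh is thus low at its 3' set on muscle arrays whose 5' set read 7926, 7912 and 7825. The part of this in the readings of Acta1 and Myl2 was not tested.

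Of 6 contractile genes that heart shares with slow skeletal fibres, 3 were called higher in heart, 1, Myl2 above, higher in skeletal muscle and 2 neither way, with a median of 2.15. Csrp3, the muscle LIM protein, read 9749, 8798 and 8924 in heart, against 623, 1078 and 866 in skeletal muscle, and Tnnc1, the troponin C of heart and slow fibres, read 6749, 6470.4 and 3299 in heart, against 1229.6, 388 and 541 in skeletal muscle. Myh7, the beta myosin heavy chain, read 6693, 6324 and 7332 in heart, against 2221, 744 and 178 in skeletal muscle: heart was even, and muscle ranged over more than 10-fold. The differences were 3.44 ± 0.24, 2.91 ± 0.32 and 3.22 ± 0.54, with limma adjusted p-values of 0.000502, 0.00262 and 0.0107. Myl3, the ventricular and slow essential light chain, read 3264, 10992 and 1179.6 in heart, against 2201, 1012 and 987 in skeletal muscle, with the tissues overlapping, and did not pass (1.40 ± 0.58, limma adjusted p = 0.142). Tpm1, alpha tropomyosin, did not pass either (0.33 ± 0.20, limma adjusted p = 0.299). Myh7 and Myh6 are near-identical neighbours and their probe sets may share signal. Of the slow isoforms that heart does not use, Tnni1, slow troponin I, was higher in skeletal muscle (-1.52 ± 0.23), as was Tpm3, slow tropomyosin (-1.50 ± 0.20), and Tnnt1, slow troponin T, did not pass (-0.56 ± 0.21). The limma adjusted p-values were 0.00791, 0.0045 and 0.118. Mybph, a skeletal myosin-binding protein, was higher in skeletal muscle too (-2.14 ± 0.30), and without the hypoxia pair neither Mybph nor Tnni1 was called.

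Genes that build the striated scaffold of both tissues differed less than those of the cardiac and fast skeletal sarcomere lists, yet leaned to skeletal muscle. Of 14 tested, 2 were called higher in heart, 4 higher in skeletal muscle and 8 neither way, against backgrounds of 9.87% and 8.00%. The median was -0.44, and 11 of the 14 differences were negative. Desmin, Des, read 2415, 3008 and 1800.0 in heart, against 2649, 3054 and 2774 in skeletal muscle, and the tissues overlapped (difference -0.24 ± 0.22, 95% confidence interval -0.77 to 0.28). Cav3, the caveolin of muscle membranes, differed by 0.21 ± 0.22 and Hspb2, a small heat shock protein of muscle, by -0.01 ± 0.20. Pdlim3, a Z-disc LIM protein, was the widest apart, at 275, 293 and 600.5 in heart, against 5853, 4455 and 4955 in skeletal muscle (difference -3.48 ± 0.27, limma adjusted p = 0.0007). Cryab and Xirp1, a chaperone and an intercalated disc protein, were the 2 called higher in heart, by 1.39 and 0.94. Without the control pair 2 were called each way, without the fragmentation pair 1 in heart and 2 in skeletal muscle, and without the hypoxia pair Pdlim3 alone.

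**Figure D3:**
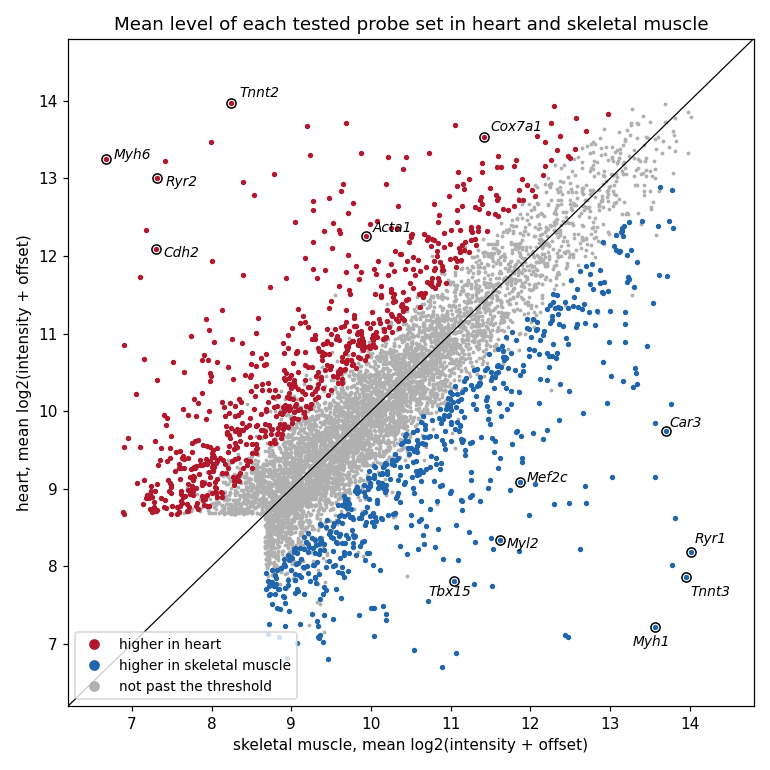
Mean level of each of the 7453 tested probe sets, as log2(intensity + offset), skeletal muscle on the horizontal and heart on the vertical axis, coloured where higher in heart (709) or in skeletal muscle (616). Circled genes are named in the text: Myh6, Tnnt2 and Ryr2 lie far above the diagonal and Myh1, Tnnt3 and Ryr1 far below it.

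Isoforms for the release and uptake of calcium were split between the 2 tissues. The ryanodine receptors are the release channels of the sarcoplasmic reticulum: Ryr2, the cardiac one, read 7056, 5871 and 9578 in heart, against 19.5, 84.5 and 129 in skeletal muscle, and Ryr1, the skeletal one, read 242, 253 and 129 in heart, against 20455, 15686 and 19806 in skeletal muscle. Neither pair of groups overlapped, and the differences were 5.68 ± 0.24 and -5.83 ± 0.22 (limma adjusted p = 0.00011 and 7.56e-05). The pumps that return calcium showed the same split: Atp2a2 (SERCA2, of heart and slow fibres) read 8864, 15394 and 6121 in heart, against 1351, 1125 and 859.9 in skeletal muscle, and Atp2a1 (SERCA1, of fast fibres) read 30.4, 36.2 and 67.8 in heart, against 8929.8, 7147 and 3043 in skeletal muscle. Atp2a1's second probe set read 396, 474 and 428 in heart, against 116, 927 and 514 in skeletal muscle and gave no difference past the threshold (-0.02 ± 0.36). Calsequestrin, which stores calcium in the reticulum, was split too, with Casq2 at 2.07 ± 0.24 and Casq1 at -3.88 ± 0.23. Of the surface calcium channel, Cacna1c, the pore of heart, read 3022, 4020.1 and 4760.1 in heart, against 656, 764 and 202 in skeletal muscle, and Cacna1s, the voltage sensor of skeletal muscle, read 494, 481 and 372 in heart, against 7971, 5240.2 and 7900.4 in skeletal muscle. The differences were 2.80 ± 0.39 and -3.65 ± 0.22, and Cacng1, the gamma subunit of the skeletal channel, differed by -4.40 ± 0.20. Slc8a1, the sodium-calcium exchanger by which heart cells expel calcium, read 5602, 4668 and 8393 in heart, against 732, 696 and 907 in skeletal muscle (difference 2.92 ± 0.22).

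Over the lists, 6 of 9 cardiac calcium genes were called higher in heart (5 without the hypoxia pair), with a median of 2.07, and 7 of 7 skeletal calcium genes were called higher in skeletal muscle, with a median of -4.40. The skeletal count was 7 under every alternative setting tried. Pvalb, the soluble calcium buffer parvalbumin of fast fibres, read 177, 298 and 79.4 in heart, against 17838, 12649 and 16545 in skeletal muscle on its brighter probe set (-5.76 ± 0.28). Its other probe set read 1021, 2434 and 1428 in heart, against 187, 475 and 0.158 in skeletal muscle and was called the opposite way (2.70 ± 0.41, limma adjusted p = 0.00782). Of the cardiac list, Hrc, a calcium-binding protein of the reticulum, Fkbp1b, which steadies the release channel, and Sln, which inhibits the pump in atria, differed by -0.55, -0.72 and -0.22 and did not pass.

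The natriuretic peptide hormones were higher in heart. Nppb, the B-type natriuretic peptide, read 9076, 9171 and 6163 in heart, against 411, 499 and 181 in skeletal muscle, and Nppa, the atrial natriuretic peptide, read 6698, 6142 and 4548 in heart, against 737, 1077 and 490.5 in skeletal muscle. Corin, the protease that activates the atrial peptide, read 1214, 1615 and 1935 in heart, against 29, 39.1 and 98.1 in skeletal muscle. All 3 were higher on every heart array than on any muscle array, with differences of 4.28 ± 0.21, 2.85 ± 0.22 and 3.52 ± 0.21 (limma adjusted p = 0.000153, 0.0007 and 0.000245). The clearance receptor Npr3 (0.78 ± 0.25) and the convertase Furin (0.55 ± 0.22) did not pass, and the receptor Npr1 was too dim to be tested.

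By the size of the difference among genes with no overlap, the 15 leading heart genes were Myh6, Myl7, Tnnt2, Ryr2, Ankrd1, Myzap, Cdh2, Pygb, Myl4, Dsp, Nppb, Tnni3, Rrad, Fhl2 and Perp. Cdh2, the N-cadherin that joins heart cells at the intercalated disc, read 3351, 3722 and 5761 in heart, against 86.2, 72.4 and 47.5 in skeletal muscle. Dsp, the desmosomal linker desmoplakin, read 12693, 13962 and 8945 in heart, against 396, 877 and 315 in skeletal muscle, and Myzap, a protein of the intercalated disc, read 4162, 5342 and 5449 in heart, against 46.7, 55.4 and 66.3 in skeletal muscle. Perp, a desmosomal membrane protein, read 3400.2, 3272 and 4705 in heart, against 191, 366 and 39.98 in skeletal muscle. The differences were 4.79 ± 0.28, 4.47 ± 0.25, 5.15 ± 0.20 and 3.92 ± 0.42. Gja1, the main gap junction protein of ventricle, was higher in heart by 2.74 ± 0.29 on one probe set and 3.08 ± 0.38 on the other. Of 7 tested genes of cardiac excitation, Gja1 and Kcne1, a potassium channel subunit, were called, at 2.74 and 0.91. Without any one pair, 1 of the 7 was called. Rrad, a small GTPase that damps calcium channels, read 9947, 7471 and 9462 in heart, against 232, 542 and 897 in skeletal muscle, and Fhl2, a LIM protein abundant in heart, read 13310.4, 11144 and 11010.2 in heart, against 563, 826 and 807 in skeletal muscle (differences 4.07 ± 0.32 and 4.02 ± 0.23).

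The 15 leading skeletal muscle genes were Myh1, Tnnt3, Ryr1, Pvalb, Atp2a1, Tnni2, Tpm2, Cacng1, Car3, Casq1, Myh4, Cd24a, Myoz1, Cacna1s and Tspan8. Car3, the carbonic anhydrase of muscle and fat, read 598, 529.7 and 1499.8 in heart, against 17141, 13990.0 and 14361 in skeletal muscle. Cd24a, a surface glycoprotein, read 709, 924 and 909 in heart, against 13984, 11554 and 15069 in skeletal muscle, and Tspan8, a tetraspanin, read 30.7, 46 and 14.7 in heart, against 2134, 1098 and 1165 in skeletal muscle. Each of the 30 leading genes was called in the same direction under all 12 alternative settings, the omission of any exposure pair included. They were picked on these same arrays for large differences with no overlap, so this is no independent check. Motor end plate and excitation genes were lower in heart: 5 of 8 tested were called higher in skeletal muscle and none in heart by limma (0 at an unadjusted p under 0.05), with a median of -1.03. Clcn1, the chloride channel that keeps fibres quiet between nerve impulses, read 245, 203 and 124 in heart, against 1217, 2049 and 2285 in skeletal muscle, and Chrnb1, a subunit of the acetylcholine receptor, read 63.9, 119 and 51.7 in heart, against 546, 366 and 677 in skeletal muscle (differences -2.80 ± 0.29 and -1.88 ± 0.29). Ache, the enzyme that clears acetylcholine, differed by -1.53 ± 0.33, Chrne, the adult receptor subunit, by -1.18 ± 0.28, and Kcnc1, a potassium channel, by -0.87 ± 0.22. Without the control pair or the fragmentation pair, 3 of the 8 were called, and 1 without the hypoxia pair.

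The promoters of 4 leading genes are shown for sequence words that muscle regulators are known to read and for the general promoter word TATAAA. They run from 250 bases before to 50 bases after the transcription start, in the direction of transcription, as RefSeq gives them on GRCm38.p6. Capitals mark matches on either strand to the E-box word CAGCTG, the M-CAT word CATTCC, the GATA word AGATAA, the TATA word TATAAA, the MEF2 site and the CArG box. The 2 heart genes are Tnnt2 (chr1:135836084-135836383, plus strand) and Nppb (chr4:147985650-147985949, plus strand), and the 2 skeletal muscle genes are Myh4 (chr11:67237562-67237861, plus strand) and Atp2a1 (chr7:126463024-126463323, minus strand).
Tnnt2: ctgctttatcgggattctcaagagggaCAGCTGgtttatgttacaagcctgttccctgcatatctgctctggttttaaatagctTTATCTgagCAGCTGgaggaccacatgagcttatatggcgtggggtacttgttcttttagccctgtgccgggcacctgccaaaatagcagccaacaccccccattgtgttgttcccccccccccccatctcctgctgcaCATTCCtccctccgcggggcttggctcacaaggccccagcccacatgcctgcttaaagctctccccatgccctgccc
Nppb: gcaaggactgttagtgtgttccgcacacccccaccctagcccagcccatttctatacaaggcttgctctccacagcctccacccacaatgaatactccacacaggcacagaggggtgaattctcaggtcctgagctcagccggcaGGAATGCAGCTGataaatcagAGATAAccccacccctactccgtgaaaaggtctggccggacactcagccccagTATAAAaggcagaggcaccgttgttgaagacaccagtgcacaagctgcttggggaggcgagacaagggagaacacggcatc
Myh4: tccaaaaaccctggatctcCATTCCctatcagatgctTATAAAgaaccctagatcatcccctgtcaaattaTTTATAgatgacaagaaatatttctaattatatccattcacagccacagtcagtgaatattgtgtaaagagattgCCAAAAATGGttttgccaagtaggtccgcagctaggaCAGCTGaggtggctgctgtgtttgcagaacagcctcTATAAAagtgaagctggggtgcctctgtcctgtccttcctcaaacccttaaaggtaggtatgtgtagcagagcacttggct
Atp2a1: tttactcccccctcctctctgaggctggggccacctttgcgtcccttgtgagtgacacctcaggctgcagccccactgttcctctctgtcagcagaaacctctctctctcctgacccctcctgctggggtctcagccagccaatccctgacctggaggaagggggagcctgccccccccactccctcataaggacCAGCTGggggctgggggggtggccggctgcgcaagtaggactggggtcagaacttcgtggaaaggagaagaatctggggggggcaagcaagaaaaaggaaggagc

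Of the 15 leading heart genes 12 had a promoter in the table, and of the 15 leading skeletal muscle genes 9 did. The first promoter listed for a gene was read. Of the promoters shown, Tnnt2 and Nppb had the most matches among the heart genes, 4 each, and Myh4 the most among the skeletal muscle genes, 6. These are not typical: the promoters of Ryr2, Myzap, Pygb, Myl4, Dsp, Tnni3, Ryr1, Pvalb and Tspan8 held no match. CAGCTG was found in 2 of the 12 heart promoters, 5 of the 9 skeletal muscle promoters and 16.4% of all 32544 promoters. CATTCC was found in 5 of the 12, 3 of the 9 and 14.6% of all. AGATAA was found in 4 of the 12, the promoters of Tnnt2, Ankrd1, Nppb and Fhl2, in 0 of the 9, and in 11.2% of all. TATAAA was found in 3 of the 12, 2 of the 9 and 13.6% of all. The MEF2 site was in 0 of the 12 and 0 of the 9, against 0.559% of all, and the CArG box in 2 of the 12, 1 of the 9 and 1.64% of all. CAGCTG can lie within longer E-boxes, and none of these words overlapped another in the 4 promoters shown. A match is a run of letters and not a measured site.

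Transcription factors of the 2 lineages followed their tissues with exceptions. Gata6, a zinc finger factor of heart, read 1787, 1632 and 2103 in heart, against 315, 126 and 111 in skeletal muscle, and Nkx2-5, the cardiac homeobox factor, read 1611, 337 and 1565 in heart, against 90.9, 112 and 122 in skeletal muscle, with the sleep fragmentation heart the lowest of the hearts. Hand2 and Gata4, which act with them in heart development, were higher in heart by 1.20 and 0.91. With Gata6 at 2.87 ± 0.30 and Nkx2-5 at 2.39 ± 0.39, 4 of 8 tested cardiac factors were called higher in heart. Mef2c, listed with them for its role in heart development, was higher in skeletal muscle: it read 318, 372 and 828 in heart, against 6232, 1597 and 5449 in skeletal muscle, and all 4 of its probe sets were called, with differences of -3.65, -2.78, -2.42 and -2.04. Without the control pair 2 of the cardiac factors were called higher in heart, and without the hypoxia pair 1 was, while Mef2c then had a limma adjusted p of 0.0517.

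Of 6 tested skeletal factors, 3 were higher in skeletal muscle, and 2 were without the hypoxia pair. Tbx15, a T-box factor of glycolytic fibres and of the body wall, read 188, 142 and 87.1 in heart, against 1726, 1679 and 2808 in skeletal muscle, and its 3 probe sets gave -2.65, -3.23 and -4.18. Myf6, the myogenic factor most abundant in adult muscle, read 339.5, 508 and 369 in heart, against 2078, 2436 and 2488 in skeletal muscle (-2.34 ± 0.20), and Myod1, the master myogenic factor, read 1414, 1845 and 859 in heart, against 2707, 3042 and 3093 in skeletal muscle (-1.11 ± 0.26). Meox2, a homeobox factor of somites and of vessels, was higher in heart (1.03 ± 0.23), a call lost without the fragmentation or the hypoxia pair (limma adjusted p = 0.111 and 0.0973). Hox genes, which mark position along the body axis, leaned to skeletal muscle: 12 of 13 tested had negative differences, 9 of them with an unadjusted p under 0.05, with a median of -0.79, and Hoxd8, Hoxc6, Hoxb7 and Hoxc9 were called. Hoxd8 read 709, 551 and 241 in heart, against 1767, 1815 and 1416 in skeletal muscle and differed by -1.70 ± 0.24. The other 3 differed by -1.15, -1.03 and -0.92, and 3 Hox genes were called without the control pair, 1 without either of the other pairs, 2 without the filter on low values and 7 with all 12 panel arrays.

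**Figure D4:**
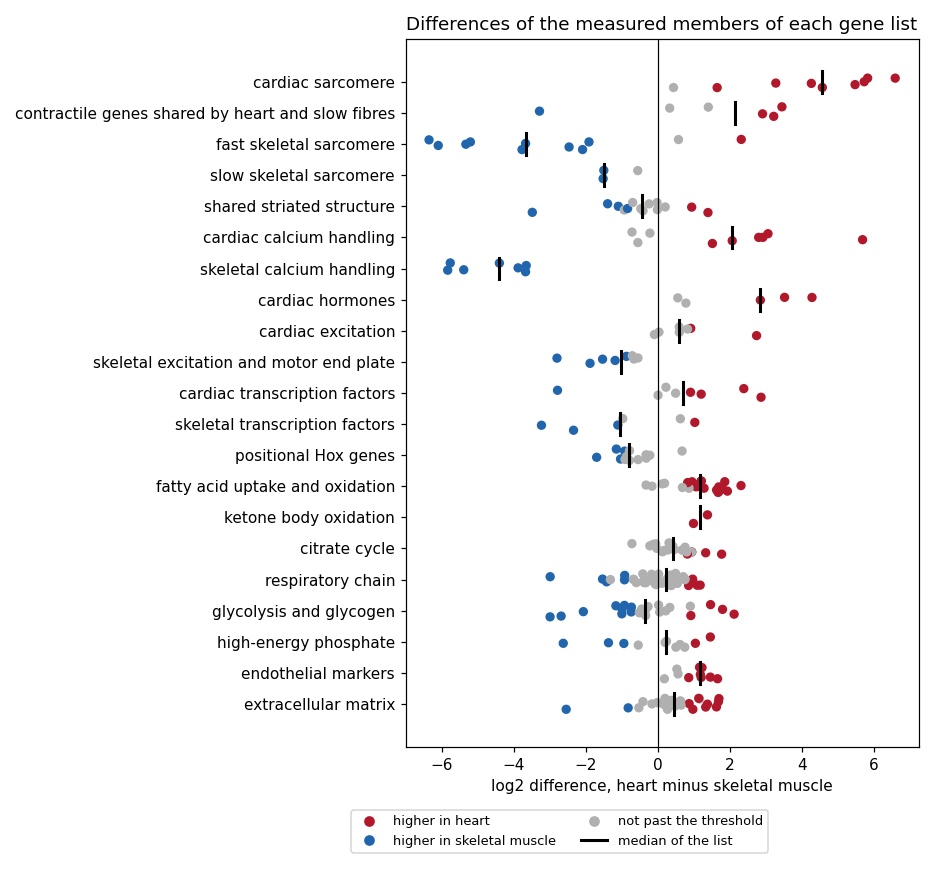
Log2 difference, heart minus skeletal muscle, of every tested member of 21 gene lists, 1 dot a gene, red where called higher in heart, blue where called higher in skeletal muscle and grey otherwise, with a black bar at the list's median. The contractile and calcium lists reach beyond 5 in either direction, while the respiratory chain has a median of 0.23.

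Fatty acid genes were higher in heart as a group. Of 22 tested genes of fatty acid uptake and oxidation, 16 were called higher in heart and 0 higher in skeletal muscle by limma (18 and 0 at an unadjusted p under 0.05), against backgrounds of 9.87% and 8.00%, and the median difference was 1.17. Etfdh, which passes electrons from fatty acid oxidation to the respiratory chain, read 6843, 4302 and 6989 in heart, against 952, 1195 and 1453 in skeletal muscle. Cd36, the fatty acid transporter of the cell surface, read 1606, 1724 and 2438 in heart, against 483, 523 and 576 in skeletal muscle, and Lpl, the lipase that frees fatty acids from lipoproteins, read 6943, 9071 and 11099 in heart, against 3591, 2648 and 2995 in skeletal muscle. Hearts and muscles did not overlap for any of the 3. The differences were 2.31 ± 0.25, 1.63 ± 0.21 and 1.69 ± 0.26, with limma adjusted p-values of 0.00231, 0.00401 and 0.00774. Cpt1a, the liver-type gate for entry into mitochondria, differed by 1.93 ± 0.26, and the oxidation enzymes Decr1, Etfa, Hadh and Acadl by 1.86, 1.80, 1.69 and 1.67. Fabp3, the fatty acid carrier of heart and red muscle, was bright in both, at 12087, 12281 and 7385 in heart, against 5079, 4340.4 and 4604 in skeletal muscle (1.28 ± 0.23). Acads and Crat, a short-chain dehydrogenase and carnitine acetyltransferase, were the 2 with negative differences (-0.33 and -0.16), and neither passed. The count was 13 without the control pair, 12 without the fragmentation pair and 9 without the hypoxia pair, with none higher in skeletal muscle. Lpl on its brighter probe set was among those lost without the hypoxia pair (limma adjusted p = 0.0561).

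Both tested genes of ketone body oxidation were higher in heart. Oxct1, the enzyme that commits ketone bodies to oxidation outside the liver, read 7726, 6589 and 6457 in heart, against 4062, 3463 and 3518 in skeletal muscle, and Slc16a1, a lactate and ketone transporter, read 381, 511 and 899 in heart, against 106, 117 and 261 in skeletal muscle. Their differences were 0.99 ± 0.20 and 1.38 ± 0.21, and 1 was called without the control or the fragmentation pair and neither without the hypoxia pair. Ldhb, the lactate dehydrogenase subunit of heart, read 3136, 4085 and 3139 in heart, against 1204, 639.9 and 492 in skeletal muscle (2.12 ± 0.29, limma adjusted p = 0.00517, and 0.0585 without the hypoxia pair), while Ldha, the subunit of fast muscle, read 5731, 8484 and 5750.1 in heart, against 3034, 2687 and 5927 in skeletal muscle and did not pass (0.90 ± 0.31). In the citrate cycle 4 of 21 tested genes were called higher in heart and 0 higher in skeletal muscle (8 and 0 at an unadjusted p under 0.05), namely Idh2, Dlst, Suclg2 and Idh3g, at 1.77, 1.33, 0.94 and 0.82, with a list median of 0.42. The citrate cycle count ranged from 1 without the hypoxia pair to 8 with trend and robust estimation, with the offset at percentile 40 or with all 12 panel arrays in the fit. Citrate synthase, Cs, read 8415, 8213 and 7547 in heart, against 11675, 10172 and 11934 in skeletal muscle (difference -0.22 ± 0.20, 95% confidence interval -0.70 to 0.25).

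The respiratory chain itself was close to even. Of 53 tested subunits, 4 were called higher in heart (Atp5k, Cox4i1, Uqcrc2 and Uqcrb, at 1.18, 1.09, 0.97 and 0.85) and 5 higher in skeletal muscle (Atp5l, Uqcrq, Ndufb5, Ndufa13 and Atp5pb, at -2.99, -1.53, -1.42, -0.92 and -0.92). These shares are near the backgrounds of 9.87% and 8.00%. Atp5l rests on 1 of 2 probe sets, since the other differed by 0.04 ± 0.24. The counts moved with the setting, to 12 higher in heart with trend and robust estimation, to 2 each way without the control pair, to 1 higher in heart and 2 higher in skeletal muscle without the fragmentation pair, and to 0 higher in heart and 1 higher in skeletal muscle without the hypoxia pair. The 3 tissue-type subunits of cytochrome oxidase went separate ways. Cox7a1 read 10610.3, 10635 and 10054 in heart, against 2549, 2578 and 2856 in skeletal muscle (2.12 ± 0.20), and Cox6a2 read 675, 3583 and 665 in heart, against 9177, 11751 and 11498 in skeletal muscle (-2.98 ± 0.41). Cox8b read 7159.7, 8379 and 6364 in heart, against 13217, 10148 and 13383 in skeletal muscle on one probe set and 3058, 3556 and 4920.4 in heart, against 2292, 1819 and 2155 in skeletal muscle on the other, which leaned in opposite directions (-0.51 ± 0.21 and 0.86 ± 0.22). The limma adjusted p-values were 0.00131, 0.00519, 0.146 and 0.0418, and that of Cox6a2 was 0.0548 without the hypoxia pair.

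More genes of glycolysis and glycogen were called higher in skeletal muscle than in heart. Among 23 tested genes of glycolysis and glycogen, 9 were called higher in skeletal muscle and 4 higher in heart, with a median of -0.35. Phkg1, the catalytic subunit of phosphorylase kinase, which starts glycogen breakdown, read 498, 467 and 412 in heart, against 4539, 3154 and 5332 in skeletal muscle, and Phka1, its muscle regulatory subunit, read 879, 793 and 1188 in heart, against 8047, 4389 and 8884 in skeletal muscle. Gys1, muscle glycogen synthase, read 3641, 3909.6 and 4932 in heart, against 10013, 8470.1 and 8907 in skeletal muscle, and Gyg, the protein primer of glycogen, read 1385, 1398 and 1363 in heart, against 3105, 2519 and 2944 in skeletal muscle. The differences were -2.99 ± 0.23, -2.68 ± 0.21, -0.99 ± 0.21 and -0.997 ± 0.198. Glycogen phosphorylase showed an isoform split on one side only: Pygb, the brain-type enzyme, read 2926, 3175 and 3725 in heart, against 43.2, 39.9 and 62.9 in skeletal muscle (4.63 ± 0.20, limma adjusted p = 0.00011), while Pygm, the muscle-type enzyme, read 8082, 8341 and 7961 in heart, against 14979.5, 14623 and 11174 in skeletal muscle and did not pass (-0.45 ± 0.21). Gpd1, of the glycerol phosphate shuttle, differed by -2.07 ± 0.36.

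The glycolytic steps of phosphoglycerate mutase and phosphofructokinase split by isoform. Pgam2, muscle phosphoglycerate mutase, was higher in skeletal muscle (-0.93 ± 0.21), and Pgam1, the general form, higher in heart (1.46 ± 0.28). Pfkm, muscle phosphofructokinase, was higher in skeletal muscle (-0.74 ± 0.19), and Pfkl, the liver form, higher in heart (1.80 ± 0.29). Aldoa, the muscle aldolase, was higher in heart and not in skeletal muscle (0.92 ± 0.21). The limma adjusted p-values of these were 0.0293, 0.0159, 0.0434, 0.00942 and 0.0283. Without any one of the 3 pairs, 3 of the 23 genes were called higher in skeletal muscle, and 3, 2 and 0 higher in heart without the control, fragmentation and hypoxia pairs. The high-energy phosphate system had the same kind of split. Ckm, muscle creatine kinase, read 3069, 2579 and 2862 in heart, against 7377, 8744 and 7991 in skeletal muscle on its brighter probe set (-1.37 ± 0.22), and Ckb, the brain form, read 3736, 3344 and 3534 in heart, against 1612, 1828 and 1578 in skeletal muscle (1.04 ± 0.20). Adssl1, the muscle enzyme of the purine nucleotide cycle, read 1528, 1268 and 2826 in heart, against 13586, 11195 and 12842 in skeletal muscle (-2.62 ± 0.26, limma adjusted p = 0.00179), and Ak1 and Ak4, cytosolic and mitochondrial adenylate kinases, differed by -0.94 and 1.46. Without the control pair 1 gene of this list was called higher in heart and 3 higher in skeletal muscle. Without the hypoxia pair Adssl1 alone of this list was called, and Ckm had a limma adjusted p of 0.0671.

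**Figure D5:**
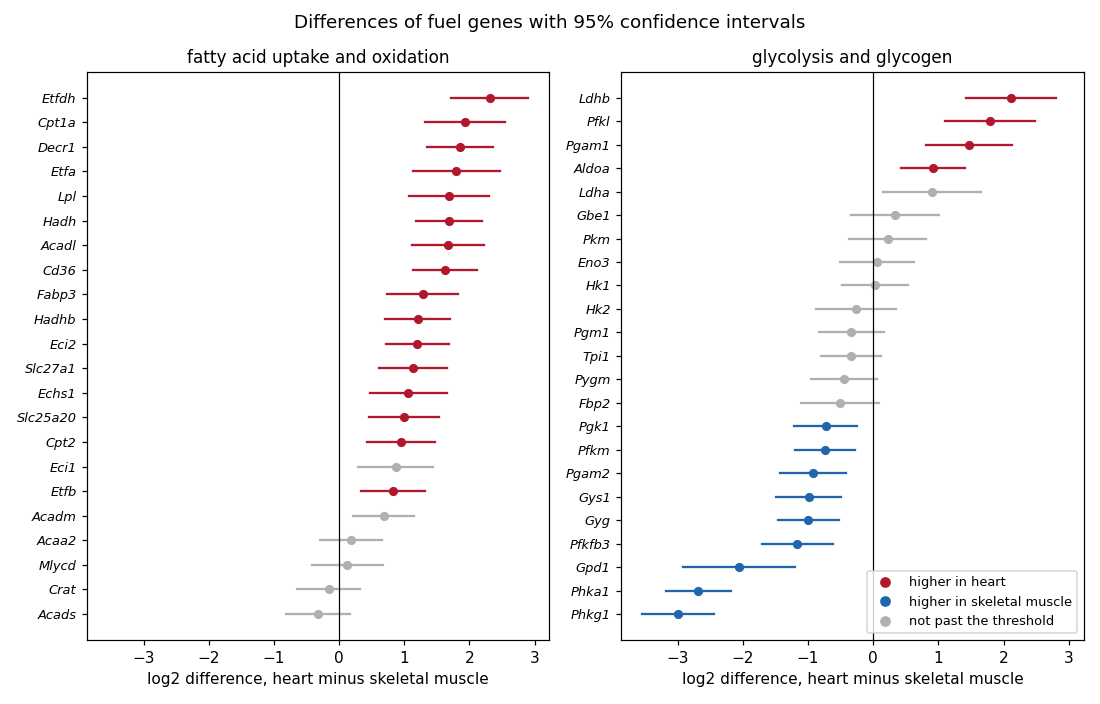
Log2 difference, heart minus skeletal muscle, with 95% confidence intervals for 22 fatty acid genes on the left and 23 glycolysis and glycogen genes on the right, coloured by the test. Fatty acid genes reach from -0.33 to 2.31 with 16 called higher in heart, and glycolysis and glycogen genes from -2.99 to 2.12.

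Other genes set the tissues apart outside contraction and fuel. Mstn, the secreted brake on muscle growth, read 302, 283 and 216 in heart, against 2975, 1704 and 2536 in skeletal muscle (-2.78 ± 0.23), and Capn3, a muscle protease, differed by -1.56 ± 0.20. Mb, the oxygen store myoglobin, read 2059.8, 3841 and 2059.7 in heart, against 5896, 7120.4 and 5259.7 in skeletal muscle and was higher in skeletal muscle (-1.18 ± 0.21, limma adjusted p = 0.013; 0.0803 without the hypoxia pair and 0.134 with all 12 panel arrays). Of 19 antioxidant genes, 5 were called higher in heart and 0 higher in skeletal muscle (6 and 0 at an unadjusted p under 0.05): Mt1, Gsta4, Mt2, Prdx2 and Sod2, at 2.91, 2.20, 1.77, 1.52 and 1.17. The metallothionein Mt1 read 4297, 5953 and 4629 in heart, against 391, 1572 and 265 in skeletal muscle. Of 13 immediate early genes 3 were higher in heart and 2 in skeletal muscle, Nr4a1 being the widest apart at 1457, 913 and 760.5 in heart, against 4447, 2649 and 3413 in skeletal muscle (-1.67 ± 0.22). Of 11 clock genes the output factor Tef and the repressor Bhlhe40 were called, both higher in skeletal muscle, at -1.59 and -1.49, and the core genes Arntl, Clock, Cry1 and Per3 were not. Without the hypoxia pair 3 antioxidant genes were called higher in heart, 0 immediate early genes in heart and 1 in skeletal muscle, and 1 clock gene. Without the fragmentation pair 2 immediate early genes were called higher in heart and 1 in skeletal muscle.

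Markers of other cell types differed between the tissues as well. Of 10 endothelial markers, 7 were called higher in heart and 0 higher in skeletal muscle (8 and 0 at an unadjusted p under 0.05), and their summed intensity was 13083 to 16525 in heart and 5889 to 7020 in skeletal muscle. Eng, a co-receptor of vessel walls, read 4322, 4604 and 4839 in heart, against 1900.3, 1641 and 1379 in skeletal muscle (1.46 ± 0.21), and Cdh5, the cadherin that defines endothelium, read 1990.3, 1632 and 2448 in heart, against 1283, 598 and 727 in skeletal muscle (1.18 ± 0.25). In such samples, more cells of a type and more RNA per cell cannot be told apart. Without the control pair 5 of the 10 were called, without the fragmentation pair 4 and without the hypoxia pair 1. Of 6 tested fibroblast markers 3 were higher in heart (Tcf21, Lum and Dpt, at 1.72, 1.38 and 0.84). Of 28 matrix genes 8 were higher in heart, Bgn, a small proteoglycan, widest at 1.70 ± 0.28, and 2 higher in skeletal muscle (Fmod and Lox, at -2.54 and -0.82). Matrix genes called higher in heart numbered 5 without the control pair and 1 without the hypoxia pair, and those higher in skeletal muscle 1 without the control or the fragmentation pair and 0 without the hypoxia pair. Fibroblast markers called numbered 2 without the control pair and 0 without the hypoxia pair. Of 7 tested macrophage markers 2 were called higher in heart and 1 higher in skeletal muscle. Of 3 tested brown fat markers 1 was called, higher in heart, and of 2 satellite cell markers 1 was called each way. The summed intensity of 5 brown fat markers was 8983 to 10133 in heart and 11189 to 14086 in skeletal muscle. None of the tested smooth muscle (5), lymphocyte (3), nerve (2) and lung epithelium (3) markers passed in limma, and 1, of lung epithelium, had an unadjusted p under 0.05. Alas2, the heme enzyme of red cell precursors, read 1910.0, 1889.7 and 3132 in heart, against 99.3, 123 and 259 in skeletal muscle (3.25 ± 0.19, limma adjusted p = 0.000267), whereas the globin gene Hba-a1 read 652, 6259 and 317 in heart, against 4038, 4545 and 6480.4 in skeletal muscle, with heart and muscle overlapping (-1.99 ± 0.72). The part of these cell types in the gene groups above was not tested.

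The leading genes were not all silent in the other tissues of the panel. Ryr2 read 1415, 1083 and 6047 in brain and 208, 166 and 254 in lung, and Cdh2 read 2522, 1556 and 8239.9 in brain, where the hypoxia array has a trimmed mean of 2670 against 800 on the other arrays of the panel. Lung arrays held heart genes, with Myl7 at 5566, 4477 and 4300.0 and Myh6 at 2392, 1876 and 2318, and read 9425, 10685 and 11089 for Cd24a. Tspan8 read 1623, 1114 and 1227 in lung, near its skeletal muscle level, and 20.3, 17.3 and 72.0 in brain. The skeletal gene Myh1 read 4.56, 16.5 and 1985 in lung and 582, 15.7 and 362 in brain, highest on the lung hypoxia array. These levels were not tested.

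Each exposure has 1 array a tissue, so whether it changed heart and skeletal muscle differently could be described and not tested. Under sleep fragmentation relative to control, heart minus skeletal muscle moved furthest up for Defa35, Apoa1, Defa23, Fabp2 and 1810009A15Rik, by 4.58, 4.56, 3.99, 3.98 and 3.54. The first 4 are intestinal genes, and each was highest on the control muscle array. It moved furthest down for Scd1, Adam7, Gpx5, Apoe and Pck1, by -4.94, -4.43, -4.17, -3.86 and -3.70. Scd1, a fat-making desaturase, read 5624, 1942 and 8111 in heart, against 749, 8971 and 10299 in skeletal muscle, and Apoe, an apolipoprotein, read 5494, 3599 and 3091 in heart, against 349, 4109.8 and 2437 in skeletal muscle. Under hypoxia relative to control it moved furthest up for Apoa1, Gga1, Scx, Myh7 and Dbnl, by 3.94, 3.92, 3.42, 3.20 and 3.06, and furthest down for St8sia5, Apoe, Ift46, Tbc1d10a and Ppp2r1b, by -3.30, -3.30, -3.14, -2.99 and -2.96. Scx, a tendon and valve factor, read 1453, 3481 and 4366 in heart, against 1262, 732 and 288 in skeletal muscle. Of the 4 defining genes, Myh6 shifted most with exposure, its heart value being lowest under hypoxia.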

How the data were processed

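Total RNA of heart and skeletal muscle was hybridised to oligonucleotide arrays carrying 12488 probe sets, with each sample on its own array. The authors' deposited values are linear intensity values, and no source used here gives how they were summarised or scaled. Their mean, leaving out 2% of probe sets at either end, was 800 on all 6 arrays, so the authors' intensity values look globally scaled. Names come from the platform annotation, in which 10833 probe sets have 1 gene symbol, 396 several and 1193 none; probe sets of the last 2 kinds were tested and left unnamed. Unless another is mentioned, a gene is represented by its probe set of highest mean over the 6 arrays.

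An offset of 90.3, the 20th percentile of all values of the 6 arrays, was added and log2 was taken. The 66 control probe sets were then left out, and the 6 arrays were quantile normalized on the log2 scale. Probe sets whose higher tissue mean lay above the 40th percentile were kept. The model had tissue and exposure as terms (limma 3.58.1, R 4.3.3, lmFit and eBayes, two-sided, 2 residual and 4.75 prior degrees of freedom), with Benjamini-Hochberg adjustment over all 7453 probe sets. The number of arrays limits the precision: the median standard error was 0.22. The fit was tested on simulated data. An exact permutation test of 3 arrays against 3 cannot give a two-sided p below 0.1 and was not used. Deviations of heart and muscle arrays of the same exposure from their tissue means correlated at -0.07 (control), 0.13 (sleep fragmentation) and 0.07 (hypoxia), so the exposures did not clearly pair the arrays.

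Named genes are the 15 with the largest difference in each direction among those past the threshold, with the same sign under every exposure and no overlap, up to 6 leading members of each gene list, members behind small counts, Myh6, Tnnt2, Myh1 and Tnnt3, and for each exposure the 5 genes at either end of its shift from control. Genes outside this rule were chosen after their values were seen. The members and lists were chosen with earlier results of these data known. The alternatives were the deposited scaling, median centring, normalization over 12 arrays, other offsets, no filter, no block, all 12 panel arrays in the fit, trend and robust estimation, and omission of each exposure pair.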

Additional observations from a re-analysis of the deposited data

Results flagged for a closer look

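Under each exposure 1 heart and 1 skeletal muscle array can be set against their own controls. For the genes below the heart change and the skeletal muscle change from control had opposite signs, and this difference was not tested. For some the heart hardly moved. Under hypoxia Apoa1 changed by 0.16 in heart and -3.78 in skeletal muscle, and Myh7 by 0.13 and -3.07. Under sleep fragmentation Apoa1 changed by 0.18 and -4.37, and Defa23 by 0.41 and -3.58. Apoa1 and Defa23 are intestinal genes that were highest on the control muscle array. For hypoxia, the heart change minus the skeletal muscle change (log2) was 3.94 for Apoa1, 3.92 for Gga1, 3.42 for Scx, 3.20 for Myh7 and 3.06 for Dbnl. It was -3.30 for St8sia5, -3.30 for Apoe, -3.14 for Ift46, -2.99 for Tbc1d10a and -2.96 for Ppp2r1b. For sleep fragmentation it was 4.56 for Apoa1, 3.99 for Defa23 and 3.54 for 1810009A15Rik, and -4.94 for Scd1, -3.86 for Apoe and -3.70 for Pck1. These are the genes at the ends of the ranking, so large values were certain to be found, and each change rests on 1 array against 1.

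Skeletal muscle genes also appeared on an array that the comparison does not use. On the lung hypoxia array the log2 level of Myh1 was 4.53 above that of the lung control array, and that of Tnnt3 was 3.46 above it. No test was possible with 1 array of each.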

How the results depend on the processing

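Without the filter on low values, which raises the number of probe sets tested to 12422, 437 were called higher in heart and 355 higher in skeletal muscle. Leaving out 1 exposure pair gave 181 to 566 higher in heart and 182 to 413 higher in skeletal muscle, the lowest counts being those without the hypoxia pair, where 1 residual degree of freedom remains; 349 of the 1325 main calls were kept there. Without the replicate block for exposure the counts were 795 and 661. Under the 7 other settings, which changed the scaling, the offset, the estimation or the arrays in the fit, the counts were 622 to 1052 and 544 to 879, within 1.5 times the main ones. No call of the 1325 changed sign under any of the 12 settings. Of the 431 genes followed, 4 to 100 lost their call under a setting and 0 to 43 gained one, most being lost without the hypoxia pair, and none reversed. The cause of the losses beyond the fewer arrays was not tested. Median centring moved the share of calls that were higher in heart to 48.6%, against 53.5%. Signal limits dim genes: after the offset, a probe set near background in both tissues was not tested, and a difference against a dim tissue is understated.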
